A study of Mus musculus with 19 samples.

Results

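The 31 genes described here encode chemokines, the small secreted proteins that steer migrating cells, and chemokine receptors. They were taken by name from the 24972 genes of the expression table, as 24 ligands and 7 receptors, and followed across the 5 groups of a study of mouse plantaris tendon. All 31 were among the 16619 genes that reached a signal of at least 10 in at least 3 libraries and were tested. Total RNA had been sequenced in 19 libraries. Scx- mice, with a targeted deletion of the tendon transcription factor scleraxis (Scx), and Scx+ mice had received tamoxifen and a growth stimulus of the tendon. Libraries of both genotypes came from day 14 (n = 4 each) and from day 7 (n = 4 each), and 3 control libraries came from Scx+ mice with neither stimulus nor tamoxifen. A comparison with the control therefore joins stimulus and tamoxifen, which cannot be told apart, and no unstimulated Scx- group is among the samples. The labels do not give the alleles, any Cre driver, the kind of stimulus, the age, the strain or the sex. They do not call the replicates separate animals either, so p-values measure the spread between samples, which may be technical.

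Chemokines bind receptors of the G protein-coupled class on leukocytes and on some stromal cells, and cells move up the gradient. CC ligands such as Ccl2 and Ccl7 act mainly on monocytes through Ccr2, CXC ligands of the Cxcl1, Cxcl2, Cxcl3 and Cxcl5 kind act on neutrophils, and Cxcl9 and Cxcl10 act on T cells and natural killer cells through Cxcr3. Others are more constitutive: Cxcl12 is made by stromal cells and read by Cxcr4, while the atypical receptor Ackr3 takes it up without classical G protein signalling. Inflammatory chemokines are known to be switched on by NF-kB and by interferons, and an injured or overloaded tendon is known to take up macrophages.

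The values are a scaled signal made by the authors, rescaled here by the median ratio over genes above 0 in every library, and are called units below. Deposited totals ran from 36.6 to 79.8 M units per library, and the number of reads behind them is unknown, so no counting interval can be given. The deleted gene was checked first. Scx held 5.8, 2.5, 4.9 and 1.7 units in the Scx- libraries and 5060.2, 3723, 5012 and 2082 units in the Scx+ libraries at day 14. At day 7 it held 17.1, 8.9, 8.9 and 5.7 units in Scx- and 7993, 5573, 3272 and 2755 units in Scx+, against 589, 439.6 and 317 units in the controls. Every library thus matched the genotype in its label, while the day was not checked by this gene. The tendon fibroblast list (9 genes) was present in every group, at 1.19% to 9.84% of the signal after the stimulus and 0.26% to 0.837% in controls. Markers of other cells varied widely. The skeletal muscle list (10 genes) made up 19.7% to 23.8% of the signal in controls, and its sum was 6438363 and 8617836 units in Scx- day 14 replicates 1 and 2 (called the muscle-rich libraries below), with 1569730 and 1421453 units in replicates 3 and 4. The macrophage list (12 genes) summed to 52420 to 143850 units in Scx- and 85252 to 131760 units in Scx+ at day 14. Its sum at day 7 was 140770 to 333630 units in Scx- and 113280 to 167460 units in Scx+, against 28793 to 61682 units in the controls. In bulk tissue, fewer cells of a type and less RNA per cell cannot be told apart, and the part that these shifts in cell types play in the results below was not tested.

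**Figure D1:**
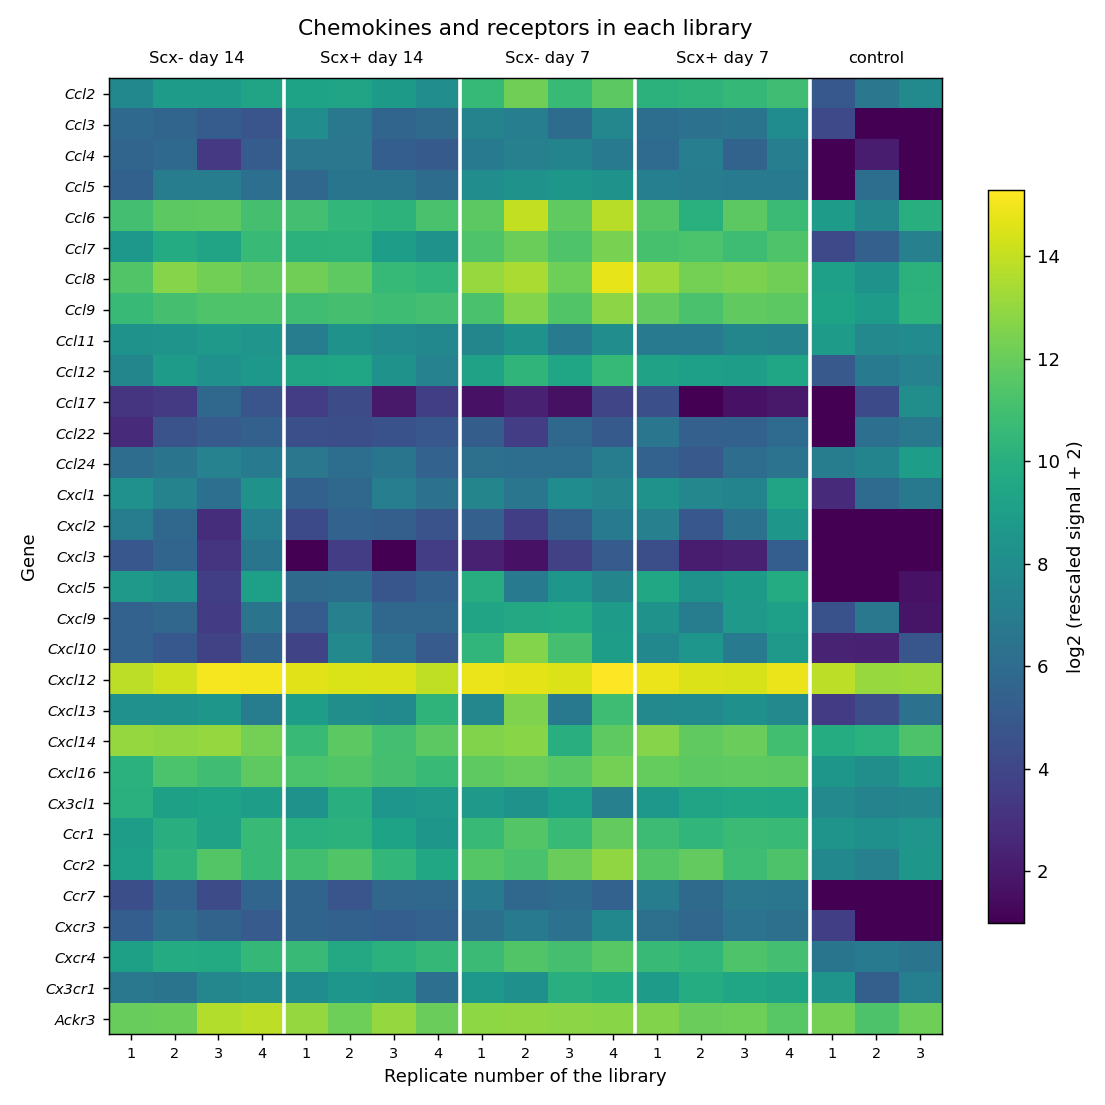
Signal of the 31 members (rows) in the 19 libraries (columns, by group and replicate number), as log2 of the rescaled signal plus 2, with brighter colours for higher levels. The 3 control columns on the right are the darkest for most inflammatory ligands, and Cxcl12 is bright in every library. Scx- day 7 replicates 2 and 4 stand out for Ccl6, Ccl9 and Cxcl13, and replicate 4 for Ccl8.

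Per kilobase of annotated exon, Ccl8 was the most abundant member on average in each of the 4 stimulated groups. Its level was 8772 ± 3209 units per kb in Scx- and 5442 ± 3191 in Scx+ at day 14, and 25550 ± 19890 in Scx- and 12160 ± 4117 in Scx+ at day 7, against 1325 ± 868 in controls (SD, n = 4, or 3 for controls). In controls Cxcl12, the stromal ligand of Cxcr4, stood level with Ccl8 at 1343 ± 427 units per kb, a difference far inside the spread. Ackr3 (1214 ± 397 units per kb) and Cxcl14 (831 ± 483), a chemokine of skin and stromal cells, followed in the controls and overlapped with both. At the low end, Cxcl3 stayed between 1.42 and 12.6 units per kb in the group means of the stimulated samples. Exon lengths were taken over all annotated transcripts, some of which retain introns, so a level per kb is approximate.

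Against the control, most members were higher after the stimulus in both genotypes. In Scx- mice at day 14, 23 of 31 passed the test (limma, adjusted p under 0.05) and all 23 were higher, where 25.5% of all tested genes were higher and 18.3% lower. In Scx+ mice at day 14, 22 passed, 21 higher and 1 lower, against 30.9% higher and 25.0% lower of all genes. At day 7, 25 passed in Scx-, 24 higher and 1 lower, against 32.3% and 25.9% of all genes. In Scx+ at day 7, 28 passed, 26 higher and 2 lower, against 33.8% and 27.5%. The median log2 fold change of the members was 2.40 in Scx- and 2.04 in Scx+ at day 14, and 3.97 in Scx- and 3.14 in Scx+ at day 7, where the median of all genes was between 0.12 and 0.18. These 4 comparisons share their 3 controls. Scaling by library totals moved the median of all genes up by 0.46 to 0.67 on the log2 scale and left 24, 24, 26 and 26 members higher in the same order of groups. In Scx+ at day 7 it also turned 5616 genes higher and 4575 lower into 8971 higher and 2449 lower among all genes. Markers of other cells moved as well, given here for Scx- day 14, Scx+ day 14, Scx- day 7 and Scx+ day 7 in turn. Macrophage markers were higher for 7, 10, 12 and 12 of 12, neutrophil markers for 3, 2, 3 and 4 of 6, T and NK cell markers for 2, 4, 7 and 5 of 9, and B cell markers for 1, 2, 2 and 5 of 5. Skeletal muscle markers were lower for 1, 7, 7 and 10 of 10, and adipocyte markers for 5 of 5 in each comparison. Tendon fibroblast markers were higher for 4, 6, 4 and 6 of 9 and lower for 1, 0, 2 and 0.

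Among the CC ligands, the monocyte attractants Ccl2 and Ccl7 rose in all 4 groups. Ccl7 held 386, 895, 646 and 1661 units in Scx- and 1158, 1218, 501 and 318 in Scx+ at day 14. At day 7 it held 2587, 4312, 2594 and 5462 units in Scx- and 2226, 2420.1, 1822 and 2579.6 in Scx+, against 15.9, 39.9 and 147 in the controls. Every stimulated library was above every control library, and the log2 fold change was 4.02 ± 0.62 (SE, adjusted p = 0.000121) in Scx- and 3.84 ± 0.62 (SE, adjusted p = 8.88e-05) in Scx+ at day 14, and 6.20 ± 0.62 (SE, adjusted p = 7.65e-07) in Scx- and 5.54 ± 0.62 (SE, adjusted p = 2.06e-06) in Scx+ at day 7. Ccl2 showed 205, 457, 468 and 659 units in Scx- and 631, 643, 445 and 254 in Scx+ at day 14. Ccl2 at day 7 held 1531, 4701, 1558 and 3324 units in Scx- and 1164, 1277, 1459 and 1946 in Scx+. Its controls held 28.3, 100.2 and 224 units, so the lowest Scx- library of day 14 lay below the highest control, and the log2 fold change there was 2.22 ± 0.57 (SE, adjusted p = 0.00483). Ccl12, a mouse ligand of Ccr2, rose by 1.95 ± 0.54 (SE, adjusted p = 0.00821) in Scx- and 2.24 ± 0.54 (SE, adjusted p = 0.00227) in Scx+ at day 14. At day 7 it rose by 3.52 ± 0.54 (SE, adjusted p = 3.99e-05) in Scx- and 2.81 ± 0.54 (SE, adjusted p = 0.00028) in Scx+. Without control replicate 1, the Ccl12 change in Scx- at day 14 no longer passed (1.24, adjusted p = 0.0627).

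Ccl8 rose with them. Its signal was 2739.5, 6539, 4938 and 3714 units in Scx- and 4762, 3469, 1530.5 and 1362 in Scx+ at day 14. The day 7 libraries held 8632, 11447, 4469 and 27686 units in Scx- and 9303, 5071, 5754 and 4726 in Scx+, against 543, 316 and 1172 in the controls. No stimulated library reached down to the controls, and the largest log2 fold change was 4.16 ± 0.57 (SE, adjusted p = 1.69e-05), in Scx- at day 7. Ccl6 and Ccl9, mouse ligands of Ccr1, lie side by side and also passed in all 4 comparisons. Ccl6 had 2080.1, 3247, 3446 and 2169 units in Scx- and 2071, 1427, 1192 and 2319 in Scx+ at day 14. At day 7 the libraries had 3279, 16088, 3517 and 13715 units in Scx- and 2856, 1074, 3248 and 1734 in Scx+, with 464, 191 and 1041 in controls. Scx- day 7 replicates 2 and 4 stood far above the other 2 libraries of their group, and the same pair also had the highest macrophage marker sums of all libraries (215038 and 333629 units). The Ccl6 call in Scx+ at day 14 was lost without control replicate 2 (1.27, adjusted p = 0.0989). Ccl9 rose by 1.63 ± 0.36 (SE, adjusted p = 0.00177) in Scx- and 1.48 ± 0.36 (SE, adjusted p = 0.00234) in Scx+ at day 14, and by 2.53 ± 0.36 (SE, adjusted p = 1.83e-05) in Scx- and 2.15 ± 0.36 (SE, adjusted p = 7.63e-05) in Scx+ at day 7.

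Ccl3, Ccl4 and Ccl5, inflammatory ligands that macrophages and T cells make, were each listed at 0 in 2 of the 3 controls. Ccl4 held 47.7, 57.7, 8.4 and 33.1 units in Scx- and 101, 98.9, 36 and 31 in Scx+ at day 14. Its day 7 values were 119, 145, 173 and 114 units in Scx- and 62.5, 136, 44.1 and 136 in Scx+, against 0, 2.4 and 0 in controls. All 16 stimulated libraries stood above the 3 controls. Ccl3 ranged from 25.1 to 57.2 units in Scx- and 49.4 to 254 in Scx+ at day 14, and from 63.9 to 192 in Scx- and 70.2 to 246 in Scx+ at day 7, against 16, 0 and 0 in controls. Ccl5 held 40.9, 130.5, 126 and 71.5 units in Scx- and 53.9, 91.5, 93.8 and 63.7 in Scx+ at day 14. At day 7 it had 257, 309, 371 and 326 units in Scx- and 141, 131, 114 and 111 in Scx+, and its controls were listed at 0, 69.8 and 0. The control at 69.8 units overlaps with the day 14 libraries of both genotypes. All 3 genes passed in each comparison with the control, though folds this close to 0 depend on the 2 units added before the logarithm. Fitted without the other groups, the Ccl5 change in Scx- at day 14 did not pass (3.62, adjusted p = 0.0586).

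Ccl24, an eosinophil attractant, fell in Scx+ mice and in Scx- mice at day 7. It held 67, 89.1, 158 and 120.4 units in Scx- and 97.7, 68.7, 90.5 and 42.5 in Scx+ at day 14. At day 7 it held 75.5, 69.5, 69.8 and 124 units in Scx- and 43.2, 29.5, 65.9 and 84.7 in Scx+, against 124, 172 and 502 in the controls. The log2 fold change was -1.60 ± 0.48 (SE, adjusted p = 0.00914) in Scx+ at day 14, -1.41 ± 0.48 (SE, adjusted p = 0.0184) in Scx- at day 7 and -2.05 ± 0.48 (SE, adjusted p = 0.00136) in Scx+ at day 7, and -1.08 ± 0.48 (SE, adjusted p = 0.0763) in Scx- at day 14, which did not pass. Without control replicate 3, the highest, or with library totals, the calls in Scx+ at day 14 and Scx- at day 7 were lost (largest adjusted p 0.0916 and 0.219). Ccl11, the eosinophil attractant eotaxin, fell only in Scx+ at day 7, by 0.97 ± 0.36 (SE, adjusted p = 0.0279), with 110.2, 123, 184 and 168 units against 461, 208 and 233 in controls. Library totals or leaving out control replicate 1, Scx+ replicate 1 or Scx+ replicate 2 ended that call (adjusted p 0.0643 to 0.516). Ccl17 and Ccl22, which attract T cells through Ccr4, did not pass in any comparison with the control, and their controls ranged from 0 to 261 units for Ccl17 and from 0 to 103 for Ccl22. Both were listed at 0 in control replicate 1. Without it Ccl17 was lower at day 7, at -3.73 in Scx- and -3.84 in Scx+ (adjusted p = 0.0105 and 0.00809), and Ccl22 was lower at day 14, at -2.01 in Scx- and -1.87 in Scx+ (adjusted p = 0.0256 and 0.0287). Ccl24 then also passed in Scx- at day 14 (-1.50, adjusted p = 0.0260).

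In the CXC family, the neutrophil attractants Cxcl2, Cxcl3 and Cxcl5 appeared with the stimulus. Cxcl5 held 399.9, 307, 10.7 and 538 units in Scx- and 60.5, 64.1, 26 and 41.2 in Scx+ at day 14. The day 7 libraries held 943, 110.4, 359.9 and 179.6 units in Scx- and 742, 328, 435 and 903 in Scx+, against 0, 0 and 1.3 in controls. It passed in all 4 comparisons, though its fold depends on the 2 units added. Cxcl2 held 128, 52.1, 5.4 and 142 units in Scx- and 16.6, 43.8, 37.7 and 23.3 in Scx+ at day 14. At day 7 the libraries had 40, 10.5, 37.7 and 117 units in Scx- and 148, 27.6, 82.7 and 372 in Scx+, and Cxcl2 was listed at 0 in all 3 controls. It too passed in each comparison, while Cxcl3 passed in Scx- at day 14 and Scx+ at day 7 only. Cxcl3 stayed low, with 27.4, 47.7, 7.4 and 93.5 units in Scx- and 0, 9.9, 0 and 10 in Scx+ at day 14. Its day 7 values were 2.9, 1.2, 12.2 and 32 units in Scx- and 19.8, 2.2, 3 and 37 in Scx+, and Cxcl3 was likewise listed at 0 in all controls. Its call in Scx+ at day 7 was lost in 7 of the other settings (adjusted p 0.0504 to 0.122), among them leaving out any 1 control or Scx+ replicate 1 or 4. In Scx- at day 7 it passed without replicate 2 (adjusted p = 0.0370). Cxcl1, also present in controls (4.7, 61.9 and 107 units), rose by 2.36 ± 0.77 (SE, adjusted p = 0.0199) in Scx- at day 14, 2.23 ± 0.77 (SE, adjusted p = 0.0194) in Scx- at day 7 and 3.01 ± 0.77 (SE, adjusted p = 0.00269) in Scx+ at day 7, and differed by 1.02 ± 0.77 (SE, adjusted p = 0.272) in Scx+ at day 14. Without control replicate 1, the lowest, the Cxcl1 change was 1.13 in Scx- at day 14 and 1.0 in Scx- at day 7 and no longer passed (adjusted p = 0.156 and 0.183), and the day 14 call was also lost without Scx- replicate 4 (adjusted p = 0.0581).

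Cxcl9 and Cxcl10, the interferon-induced ligands of Cxcr3, were highest at day 7. Cxcl10 held 1363, 6487, 2178 and 491 units in Scx- and 203, 360, 113 and 411 in Scx+ at that time, against 3.2, 3 and 26 in controls, and its log2 fold change was 7.61 ± 0.90 (SE, adjusted p = 3.08e-06) in Scx- and 4.76 ± 0.90 (SE, adjusted p = 0.000233) in Scx+. Its signal at day 14 was 43, 28.8, 11.7 and 45.2 units in Scx- and 13.5, 213, 73.5 and 32.7 in Scx+, with log2 fold changes of 1.77 ± 0.90 (SE, adjusted p = 0.120) in Scx- and 2.59 ± 0.90 (SE, adjusted p = 0.0217) in Scx+. The Scx- libraries of day 14 overlapped with the controls, and without control replicate 3 they passed (2.58, adjusted p = 0.0446). For Scx+ at day 14, 4 other settings ended the Cxcl10 call (adjusted p 0.0571 to 0.0922), among them leaving out control replicate 1, control replicate 2 or the second Scx+ library. Cxcl9 held 639.8, 775, 899 and 470.4 units in Scx- and 323, 130.4, 409.8 and 533 in Scx+ at day 7, against 22.5, 106 and 1.5 in controls, and passed at day 7 in both genotypes and at day 14 in neither. Without control replicate 2 it also passed in Scx+ at day 14 (2.77, adjusted p = 0.0113).

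Cxcl12 rose by 1.19 ± 0.29 (SE, adjusted p = 0.00347) in Scx- and 1.04 ± 0.29 (SE, adjusted p = 0.00592) in Scx+ at day 14, and by 1.48 ± 0.29 (SE, adjusted p = 0.000376) in Scx- and 1.31 ± 0.29 (SE, adjusted p = 0.000903) in Scx+ at day 7. Cxcl14 was 8295, 7788, 8358 and 5038 units in Scx- and 1659, 3355, 2039.8 and 3299 in Scx+ at day 14. Cxcl14 at day 7 held 6143, 6872, 1053 and 3398 units in Scx- and 6595, 3542, 4193 and 1996 in Scx+, against 907, 1117 and 2529.5 in controls. It rose in Scx- at day 14 by 2.40 ± 0.55 (SE, adjusted p = 0.00242) and passed at day 7 in both genotypes, with libraries that overlapped the controls. Both day 7 calls were lost without control replicate 1 or without control replicate 2. The Scx- call also needed Scx- replicates 1, 2 and 4, and the Scx+ call Scx+ replicates 1 and 3, and the adjusted p without one of these libraries was 0.0593 to 0.164. Cxcl16, a membrane-bound ligand of Cxcr6, held 1132, 2397, 1932 and 3436 units in Scx- and 2446, 2708, 2194 and 1608 in Scx+ at day 14. Cxcl16 at day 7 held 3487, 3941, 3193 and 5053 units in Scx- and 3861, 3349, 3466 and 3283 in Scx+, against 375, 264 and 477 in controls. All stimulated libraries lay above all controls. Cxcl16 shares 552 exonic bases with Zmynd15 on the other strand, and whether the libraries kept the strand is not stated. Cxcl13, a B cell attractant, passed in all 4 comparisons, from 3.14 ± 1.06 (SE, adjusted p = 0.0173) in Scx+ at day 7 to 4.71 ± 1.06 (SE, adjusted p = 0.00133) in Scx- at day 7, where its libraries held 192, 5819.7, 109.7 and 1853 units. Its calls in Scx- at day 14 and Scx+ at day 7 were lost without control replicate 1 or 2 (adjusted p 0.0559 to 0.0849). Cx3cl1, the membrane-bound fractalkine, rose by 1.83 ± 0.42 (SE, adjusted p = 0.00218) in Scx- and 1.34 ± 0.42 (SE, adjusted p = 0.0120) in Scx+ at day 14 and by 1.70 ± 0.42 (SE, adjusted p = 0.00205) in Scx+ at day 7, and differed by 0.78 ± 0.42 (SE, adjusted p = 0.117) in Scx- at day 7, where it passed without Scx- replicate 4 (1.16, adjusted p = 0.0181).

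Of the 7 receptors, Ccr1, Ccr2, Ccr7, Cxcr3 and Cxcr4 were higher in each stimulated group. Cxcr4, the receptor of Cxcl12, had 562, 888, 861 and 1487 units in Scx- and 1671, 795, 1128 and 1447 in Scx+ at day 14. The day 7 libraries held 1739.5, 2688, 2162 and 3019.7 units in Scx- and 1569, 1336, 2603 and 2067 in Scx+, against 93.7, 119 and 87 in the controls. The 3 controls lay close together and far below every stimulated library. The log2 fold changes were 3.15 ± 0.31 (SE, adjusted p = 1.38e-06) in Scx- and 3.59 ± 0.31 (SE, adjusted p = 2.21e-07) in Scx+ at day 14, and 4.54 ± 0.31 (SE, adjusted p = 1.13e-08) in Scx- and 4.18 ± 0.31 (SE, adjusted p = 2.60e-08) in Scx+ at day 7. Ccr2, the monocyte receptor of Ccl2 and Ccl7, held 536, 1269, 2799 and 1626 units in Scx- and 2005, 2674, 1431 and 718 in Scx+ at day 14. At day 7 the libraries had 2927, 2359, 4237 and 7781 units in Scx- and 2828, 3729.8, 1869 and 2497 in Scx+, with 199, 147 and 376 in controls. Ccr1, read by Ccl3, Ccl6 and Ccl9 among others, rose by 1.39 ± 0.41 (SE, adjusted p = 0.0108) in Scx- and 1.18 ± 0.41 (SE, adjusted p = 0.0208) in Scx+ at day 14, and by 2.82 ± 0.41 (SE, adjusted p = 2.11e-05) in Scx- and 2.29 ± 0.41 (SE, adjusted p = 0.000130) in Scx+ at day 7. The Ccr1 call in Scx+ at day 14 did not survive leaving out control replicate 2 or either of the first and second Scx+ libraries (adjusted p 0.0642 to 0.0693).

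Ccr7, the receptor that brings dendritic cells and T cells to lymph nodes, passed in all 4 comparisons. Its signal was 19.6, 48.4, 17.5 and 48.8 units in Scx- and 47.2, 25.4, 50.1 and 52.2 in Scx+ at day 14. Its day 7 values were 111, 54, 65.1 and 43.8 units in Scx- and 134, 59.1, 97.8 and 95.9 in Scx+, and it was listed at 0 in all 3 controls. Cxcr3, the receptor of Cxcl9 and Cxcl10, ranged from 32.6 to 67.1 units in Scx- and 36.6 to 47.5 in Scx+ at day 14, and from 76.3 to 204 in Scx- and 51.1 to 85.2 in Scx+ at day 7, against 10.6, 0 and 0 in controls. Cx3cr1, the fractalkine receptor of monocytes and resident macrophages, rose at day 7 by 2.18 ± 0.66 (SE, adjusted p = 0.00923) in Scx- and 2.39 ± 0.66 (SE, adjusted p = 0.00471) in Scx+. At day 14 it differed by 0.23 ± 0.66 (SE, adjusted p = 0.798) in Scx- and 0.81 ± 0.66 (SE, adjusted p = 0.307) in Scx+, and its controls ranged from 37.5 to 340.2 units. Without control replicate 2 the Cx3cr1 call in Scx- at day 7 was lost (1.34, adjusted p = 0.0838). Ackr3 did not pass in any of the 4 comparisons, with 0.96 ± 0.42 (SE, adjusted p = 0.0737) in Scx- and 0.63 ± 0.42 (SE, adjusted p = 0.215) in Scx+ at day 14, and 0.90 ± 0.42 (SE, adjusted p = 0.0748) in Scx- and 0.16 ± 0.42 (SE, adjusted p = 0.754) in Scx+ at day 7. With library totals it passed in 3 of them, from 1.23 to 1.60, and without the 2 muscle-rich libraries it was 1.83 in Scx- at day 14 (adjusted p = 0.000379). Leaving out either of these alone was enough (1.27 without replicate 1 and 1.23 without replicate 2, adjusted p = 0.0190 and 0.0241).

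**Figure D2:**
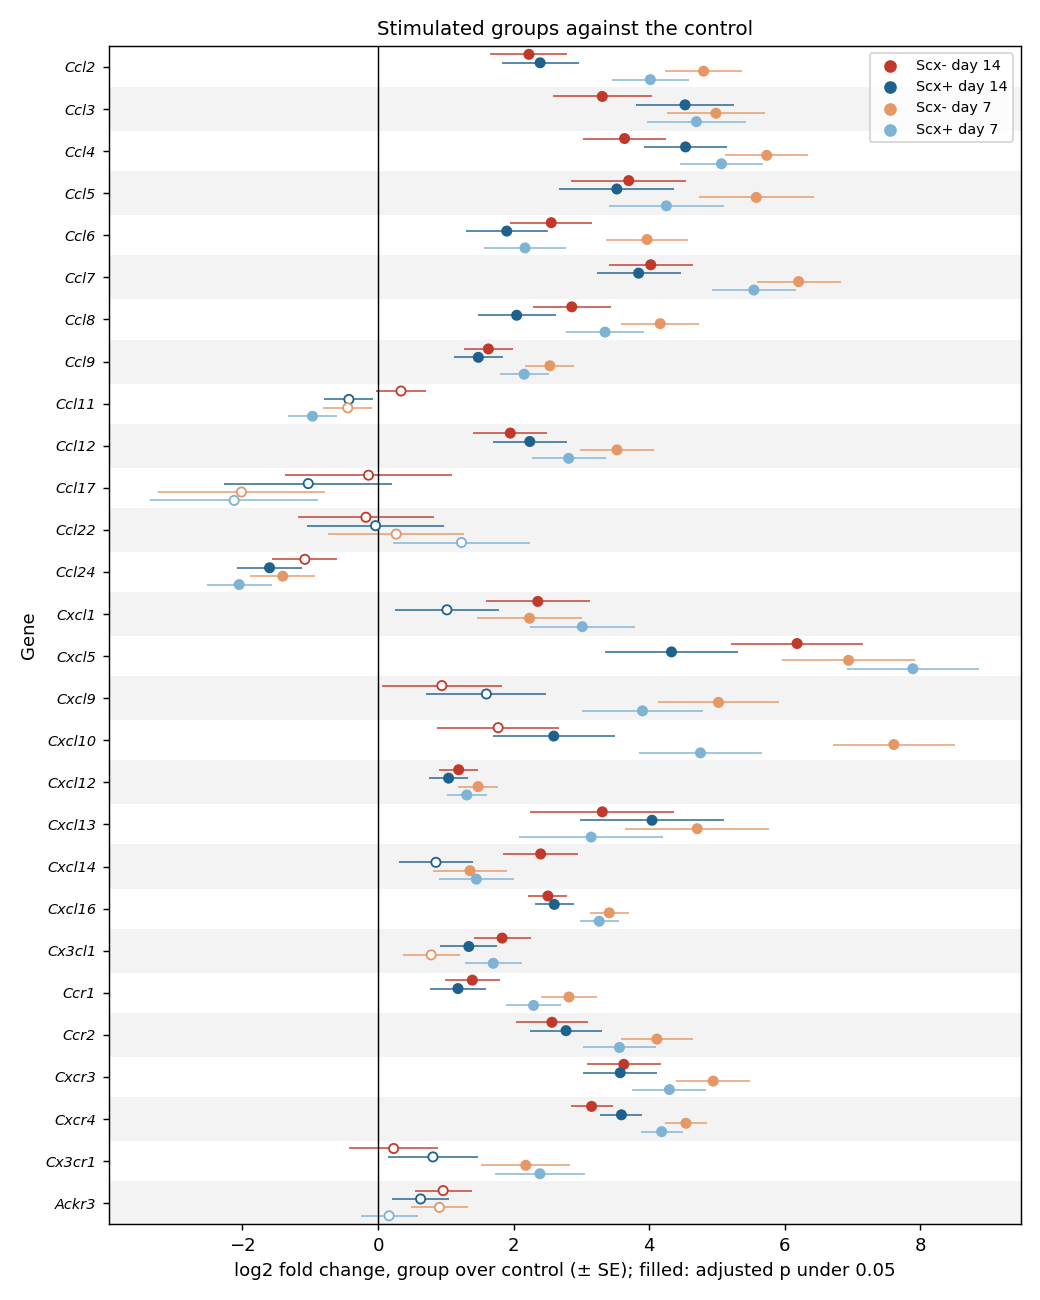
Log2 fold change of each stimulated group over the control (x axis, with its SE) for the 28 members with a signal above 0 in at least 1 control (y axis), filled where the adjusted p was under 0.05. Cxcl10 reaches 7.61 in Scx- at day 7, Cxcl12 keeps between 1.04 and 1.48 in all 4 groups, and Ccl24 lies left of 0 in all 4.

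Day 14 was then set against day 7 within each genotype. In Scx- mice, 7 of 31 members passed and all 7 were lower at day 14, where 3.86% of all tested genes were lower and 1.40% higher. These were the T cell attractants Cxcl10 and Cxcl9, the monocyte attractants Ccl2 and Ccl7, Ccl4, and the receptors Cxcr4 and Ccr1. In Scx+ mice none passed (limma), where 0.0181% of all genes were lower and 0.0120% higher. The unadjusted p there was under 0.05 for 11 members and for 1758 of all 16619 tested genes. The median log2 fold change over the members was -1.30 in Scx- and -0.73 in Scx+, against 0.02 and 0.00 for all genes. Markers of macrophages moved too, with 9 of 12 lower in Scx- and none in Scx+ (medians -1.22 and -0.43), and their part in these differences was not tested. Without the muscle-rich day 14 replicates 1 and 2, which leaves 2 libraries at that time, 2 members passed, Cxcl10 and Ccl4. There Cxcl9 was -4.39 (adjusted p = 0.0510) and Ccl2 was -2.15 (adjusted p = 0.111). The count was 11 with library totals and 14 on the deposited scale, where all genes split into 112 higher and 2492 lower, against 232 and 641 as reported. Fitted on the 2 groups alone, Cxcr4, Ccr1 and Ccl4 lost their calls and Ccl5 gained one (-1.86, adjusted p = 0.0475), and with the replicate block Ccl7 and Ccr1 lost theirs (adjusted p = 0.0594 for both). Leaving out single libraries gave 4 to 9, with 4 when the first Scx- library of day 14 or replicate 2 or 4 of Scx- at day 7 was left out. Single libraries also added calls, all lower at day 14: Ccl9 without Scx- day 7 replicate 1, Ccr2 without Scx- day 14 replicate 3, and Cxcl16 and Cx3cr1 without Scx- day 14 replicate 4 (adjusted p 0.0118 to 0.0494).

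Cxcl10 had the largest difference. It held 43, 28.8, 11.7 and 45.2 units at day 14 and 1363, 6487, 2178 and 491 units at day 7 in Scx- libraries, with no overlap, and the log2 difference was -5.84 ± 0.84 (SE, adjusted p = 0.000635). Between Scx+ libraries the same comparison gave 13.5, 213, 73.5 and 32.7 units at day 14 and 203, 360, 113 and 411 units at day 7, which overlap, and -2.16 ± 0.84 (SE, adjusted p = 0.344). Its neighbour Cxcl9 held 43.9, 51.4, 9.5 and 89.9 units at day 14 against 639.8, 775, 899 and 470.4 units at day 7 in Scx-, or -4.08 ± 0.82 (SE, adjusted p = 0.00764). In Scx+ mice Cxcl9 had 33.4, 147, 53.5 and 52.5 units at day 14 against 323, 130.4, 409.8 and 533 units at day 7, or -2.30 ± 0.82 (SE, adjusted p = 0.294). Whether the change over time differed between genotypes is the same question as whether the genotype effect differed between days, and for Cxcl10 that difference was -3.67 ± 1.18 (SE, adjusted p = 0.545), which did not pass.

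Ccl2 fell by 2.58 ± 0.53 (SE, adjusted p = 0.00882) and Ccl7 by 2.18 ± 0.57 (SE, adjusted p = 0.0357) in Scx-, and the 2 time points did not overlap for either. In Scx+ mice the values were -1.63 ± 0.53 (SE, adjusted p = 0.241) and -1.70 ± 0.57 (SE, adjusted p = 0.262), again with no overlap. Ccl4 fell by 2.10 ± 0.57 (SE, adjusted p = 0.0389) in Scx-, a call that 8 other settings ended (adjusted p 0.0533 to 0.0990), among them leaving out any 1 Scx- day 7 library or Scx- day 14 replicate 1 or 3. Cxcr4 held 562, 888, 861 and 1487 units at day 14 and 1739.5, 2688, 2162 and 3019.7 at day 7 in Scx-, a fall of 1.39 ± 0.29 (SE, adjusted p = 0.00900). Ccr1 fell by 1.43 ± 0.38 (SE, adjusted p = 0.0351) in Scx-, with 518, 1038, 598 and 1614 units at day 14 and 1639.6, 2834, 1572 and 3719.6 at day 7, where the highest day 14 library overlaps with the lowest of day 7. Ccl7 and Ccr1 each lost their call without Scx- day 7 replicate 2 or 4, and without Scx- day 14 replicate 1, 2 or 3. In Scx-, 11 members had all day 14 libraries below all day 7 libraries, where 8.37% of all tested genes did so. Of these 11, Ccl3, Ccl5, Ccl12, Cxcr3 and Cx3cr1 did not pass.

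In Scx+ mice, 12 members had all day 14 libraries below all day 7 libraries, though none passed, where 6.11% of all tested genes did so. The largest of these differences was in Cxcl5, with 60.5, 64.1, 26 and 41.2 units at day 14 and 742, 328, 435 and 903 units at day 7, and its log2 difference was -3.56 ± 0.90 (SE, adjusted p = 0.170). Fitted on the 2 groups alone it passed (-3.56, adjusted p = 0.0366). The other neutrophil attractants gave -2.0 ± 0.71 (SE, adjusted p = 0.295) for Cxcl1, -1.84 ± 0.88 (SE, adjusted p = 0.478) for Cxcl2 and -1.24 ± 0.94 (SE, adjusted p = 0.700) for Cxcl3. In Scx- libraries the same 4 genes gave -0.76 ± 0.90 (SE, adjusted p = 0.656) for Cxcl5, 0.12 ± 0.71 (SE, adjusted p = 0.943) for Cxcl1, 0.40 ± 0.88 (SE, adjusted p = 0.83) for Cxcl2 and 1.86 ± 0.94 (SE, adjusted p = 0.255) for Cxcl3. The remaining members with no overlap in Scx+ were Ccl2, Ccl5, Ccl7, Ccl9, Ccl22, Cxcl1, Cxcl16, Ccr1, Ccr7, Cxcr3 and Cx3cr1.

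**Figure D3:**
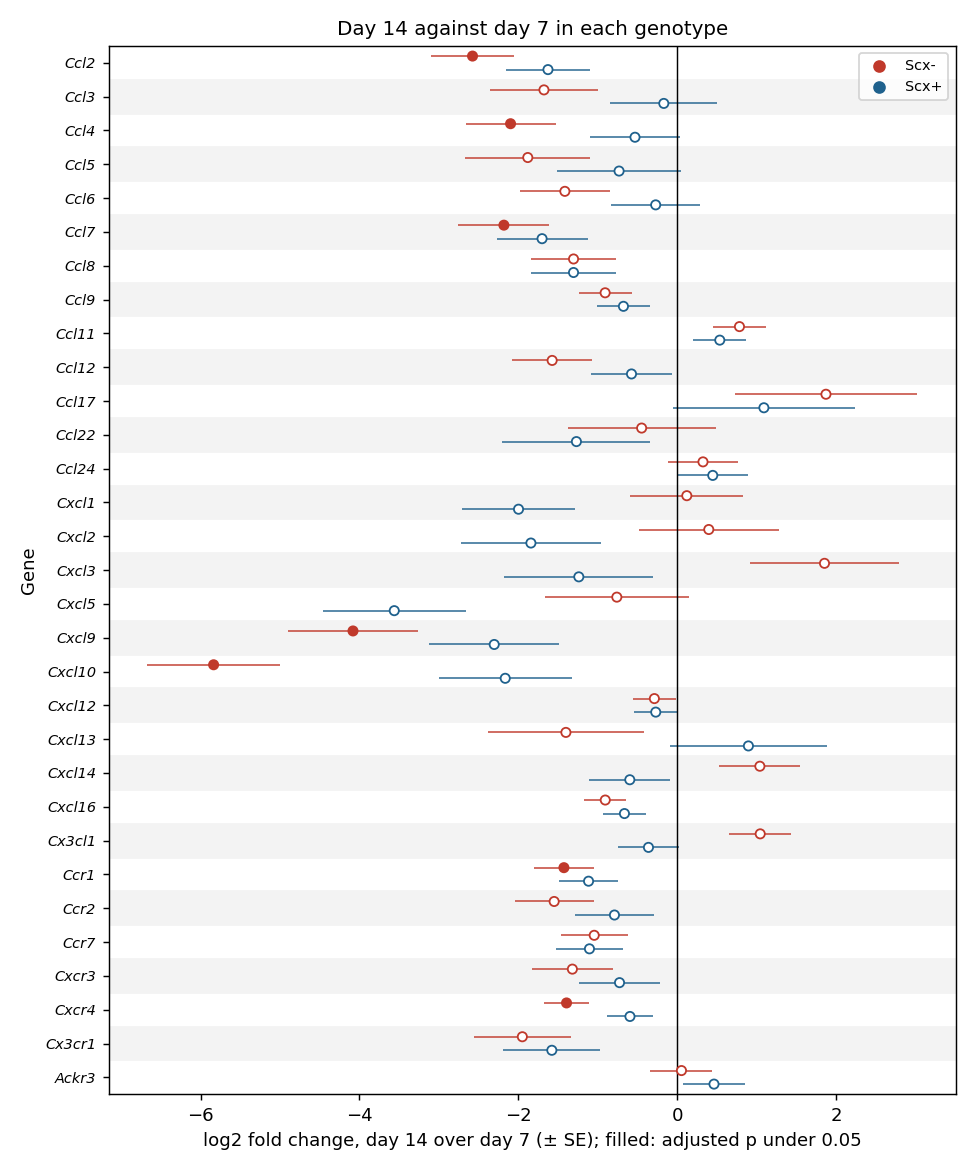
Log2 fold change of day 14 over day 7 (x axis, with its SE) for the 31 members (y axis) in Scx- and Scx+ mice, filled where the adjusted p was under 0.05. Most points of both genotypes lie left of 0, and the 7 filled points, all of Scx-, include Cxcl10 at -5.84 and Cxcl9 at -4.08.

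Many members sit in clusters, as annotated by GENCODE on GRCm38. Cxcl9 and Cxcl10 lie within 27.5 kb on the minus strand (chr5:92321347-92348889), and Cxcl5, Cxcl3, Cxcl1 and Cxcl2 within 147 kb on the plus strand (chr5:90759360-90905938). Ccl2, Ccl7, Ccl11, Ccl12 and Ccl8 share 81.2 kb (chr11:82035571-82116799), and Ccl5, Ccl9, Ccl6, Ccl3 and Ccl4 share 139 kb (chr11:83525778-83664683). Members of one cluster did not move alike: Ccl11 fell or did not pass where its neighbours Ccl7 and Ccl12 rose. Ccr1 and Ccr2 lie within 151 kb (chr9:123962124-124113557), and Cxcr4 stands alone on chromosome 1 (chr1:128588199-128592293, minus strand). Cxcl10 shares 133 exonic bases with Art3 on the other strand, and those reads cannot be told apart without strand.

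The promoters of 4 members that were lower at day 14 than at day 7 in Scx- are shown from RefSeq (GRCm38.p6, 250 bases before the start of transcription to 50 after it), 5′ to 3′ on the strand of the gene. In the promoter table used, 22 of the 31 members were matched. Capitals mark matches on either strand to the ISRE core GAAANNGAAA, read by interferon-activated factors, the GAS element TTCNNNGAA, also tied to interferon responses, or the NF-kB consensus. The intervals are chr5:92348840-92349139 for Cxcl10, chr5:92328030-92328329 for Cxcl9, chr9:123968643-123968942 for Ccr1 and chr1:128592250-128592549 for Cxcr4, all on the minus strand.
Cxcl10: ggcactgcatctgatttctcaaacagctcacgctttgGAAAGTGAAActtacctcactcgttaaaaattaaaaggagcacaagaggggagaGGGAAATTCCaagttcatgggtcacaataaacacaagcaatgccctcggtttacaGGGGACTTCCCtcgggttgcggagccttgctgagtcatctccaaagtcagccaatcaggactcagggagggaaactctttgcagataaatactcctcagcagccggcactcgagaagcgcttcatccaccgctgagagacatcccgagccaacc
Cxcl9: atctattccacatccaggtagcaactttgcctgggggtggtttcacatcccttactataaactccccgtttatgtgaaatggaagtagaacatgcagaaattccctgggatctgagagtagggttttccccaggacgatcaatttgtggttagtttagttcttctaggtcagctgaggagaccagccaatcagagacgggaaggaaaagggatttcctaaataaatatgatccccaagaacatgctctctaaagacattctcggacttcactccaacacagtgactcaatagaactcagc
Ccr1: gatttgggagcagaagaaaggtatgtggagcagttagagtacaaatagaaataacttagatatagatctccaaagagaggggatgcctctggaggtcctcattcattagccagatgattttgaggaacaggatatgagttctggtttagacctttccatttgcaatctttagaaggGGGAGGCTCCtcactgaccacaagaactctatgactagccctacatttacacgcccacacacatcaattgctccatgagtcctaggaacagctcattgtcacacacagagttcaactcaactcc
Cxcr4: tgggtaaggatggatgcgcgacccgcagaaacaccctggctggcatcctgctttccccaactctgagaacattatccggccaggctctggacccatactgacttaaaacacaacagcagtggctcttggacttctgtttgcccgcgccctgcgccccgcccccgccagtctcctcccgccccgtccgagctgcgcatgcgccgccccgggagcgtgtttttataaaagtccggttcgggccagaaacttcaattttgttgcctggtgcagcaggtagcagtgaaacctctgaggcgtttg
Cxcl10 held 1 ISRE core and 3 NF-kB matches, of which 2 overlap in the run of capitals nearest the start. Ccr1 held 1 NF-kB match, and Cxcl9 and Cxcr4 held none of these letters in the window shown. Over the 22 member promoters, 2 held an ISRE core (Cxcl10 and Cxcl14), 2 a GAS element (Ccl17 and Cxcl14) and 6 an NF-kB match (Ccl9, Ccr1, Cxcl1, Cxcl2, Cxcl3 and Cxcl10). Among 32851 promoters of the same length the shares were 3.44%, 8.30% and 8.46%. A match is a run of letters, not a site shown to be in use.

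The comparison of genotypes asked how the chemokine genes differed without Scx. At day 14 none of the 31 members passed between Scx- and Scx+ (limma), where 0.108% of all tested genes were higher and 0.409% lower. The unadjusted p was under 0.05 for 3 members and for 2429 of all 16619 tested genes. None passed at day 7 either, where 0.433% of all genes were higher and 0.337% lower. At that day the unadjusted p was under 0.05 for 3 members and for 1207 of all genes. The difference between the 2 genotype effects passed for no member, where 0.00602% of all genes were higher and 0.0120% lower. For this difference the unadjusted p was under 0.05 for 5 members and for 721 of all genes. The median log2 fold change of the members was 0.15 at day 14 and 0.52 at day 7, against 0.02 at both days for all genes, with 18 and 22 of 31 positive. Erythroid markers differed between genotypes at day 7, with sums of 3190 to 14265 units in Scx- and 228840 to 1048300 in Scx+, and 5 of 10 lower. Tendon fibroblast markers were lower too, 3 of 9 at each day, in a list that holds the deleted gene Scx itself. Of the 12 macrophage markers, 1 was higher at day 7. The part of these markers in the values below was not tested.

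At day 7, the 4 Scx- libraries lay above the 4 Scx+ libraries for 5 members, and for none did they lie below, where 3.71% of all tested genes lay above and 4.18% below. Cxcl10 held 1363, 6487, 2178 and 491 units in Scx- and 203, 360, 113 and 411 in Scx+, or 2.85 ± 0.84 (SE, adjusted p = 0.185). Ccl6 gave 1.80 ± 0.56 (SE, adjusted p = 0.254), with its lowest Scx- library at 3279 units and its highest Scx+ library at 3248. For Ccl5 the libraries held 257, 309, 371 and 326 units in Scx- and 141, 131, 114 and 111 in Scx+, or 1.33 ± 0.79 (SE, adjusted p = 0.784). These are narrow groups, and a fit on the 2 groups alone, without the controls and the day 14 libraries, called Ccl5 (1.32, adjusted p = 0.0188). The other 2 were Ccl7, at 0.66 ± 0.57 (SE, adjusted p = 0.875), and Ackr3, at 0.74 ± 0.39 (SE, adjusted p = 0.766), with 7494, 7722, 7062 and 6939.8 units in Scx- and 6165, 4235, 4502 and 3081 in Scx+. Of the 31 members, 9 had negative values at day 7, none of which passed, among them Cx3cl1 (-0.92 ± 0.39 SE, adjusted p = 0.572) and the neutrophil attractants Cxcl2 (-1.46 ± 0.88 SE, adjusted p = 0.788), Cxcl5 (-0.95 ± 0.90 SE, adjusted p = 0.892) and Cxcl1 (-0.78 ± 0.71 SE, adjusted p = 0.883). Cxcl13 averaged 1994 ± 2674 units in Scx- and 235 ± 37.2 in Scx+ (SD over 4 libraries), a spread that 2 Scx- libraries set, and Cxcl9 differed by 1.12 ± 0.82 (SE, adjusted p = 0.851).

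At day 14 the Scx- libraries lay above all Scx+ libraries for 2 members and below them for none, where 1.87% of all tested genes lay above and 2.94% below. Cxcl14 held 8295, 7788, 8358 and 5038 units in Scx- and 1659, 3355, 2039.8 and 3299 in Scx+, or 1.54 ± 0.51 (SE, adjusted p = 0.220). Ccl11 held 323, 338, 425 and 349 units in Scx- and 132, 308, 232 and 199 in Scx+, or 0.77 ± 0.34 (SE, adjusted p = 0.308). The 4 neutrophil attractants had positive values, with 2.79 ± 0.94 (SE, adjusted p = 0.226) for Cxcl3, 1.85 ± 0.90 (SE, adjusted p = 0.355) for Cxcl5, 1.34 ± 0.71 (SE, adjusted p = 0.391) for Cxcl1 and 0.78 ± 0.88 (SE, adjusted p = 0.691) for Cxcl2. Cxcl5 held 399.9, 307, 10.7 and 538 units in Scx- and 60.5, 64.1, 26 and 41.2 in Scx+, so that 3 Scx- libraries stood above all Scx+ libraries and replicate 3 below them. Without that library Cxcl5 passed, at 3.10 ± 0.58 (SE, adjusted p = 0.0191). The same library was also the lowest of its group for Cxcl1, Cxcl2 and Cxcl3, and it had the lowest sum of neutrophil markers, 437 units, against 2385, 1840 and 756 in replicates 1, 2 and 4. The neutrophil list (10 genes, 6 tested) summed to 455 to 990 units in Scx+ at day 14, and no marker passed between genotypes. Its defining gene Ly6g stayed at or below 7.9 units in every library. The part of neutrophil markers in the Cxcl5 values was not tested.

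**Figure D4:**
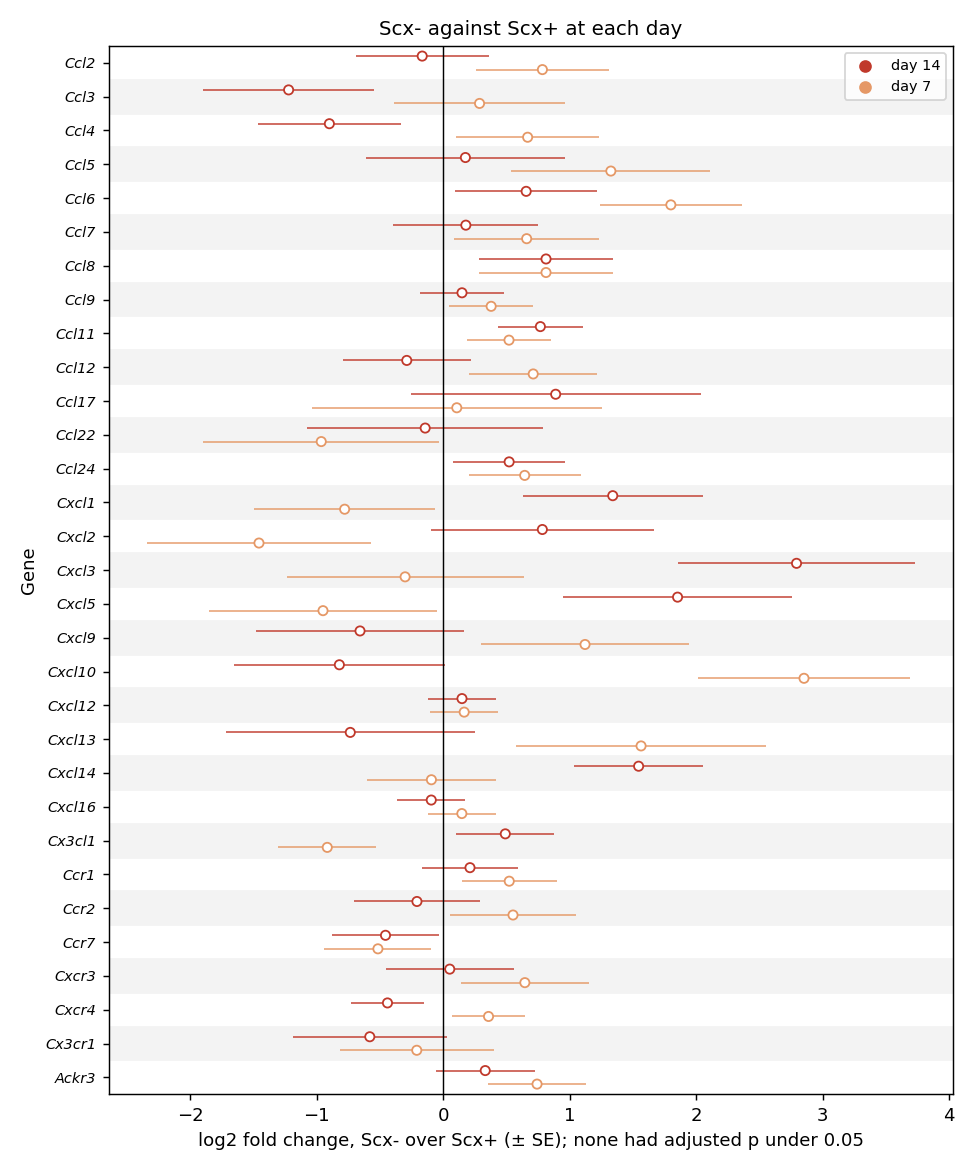
Log2 fold change of Scx- over Scx+ (x axis, with its SE) for the 31 members (y axis) at day 14 and at day 7, all points open because no adjusted p was under 0.05. Cxcl10 lies farthest right at day 7 (2.85), and Cxcl1, Cxcl2, Cxcl3 and Cxcl5 lie left of 0 at day 7 and right of 0 at day 14.

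**Figure D5:**
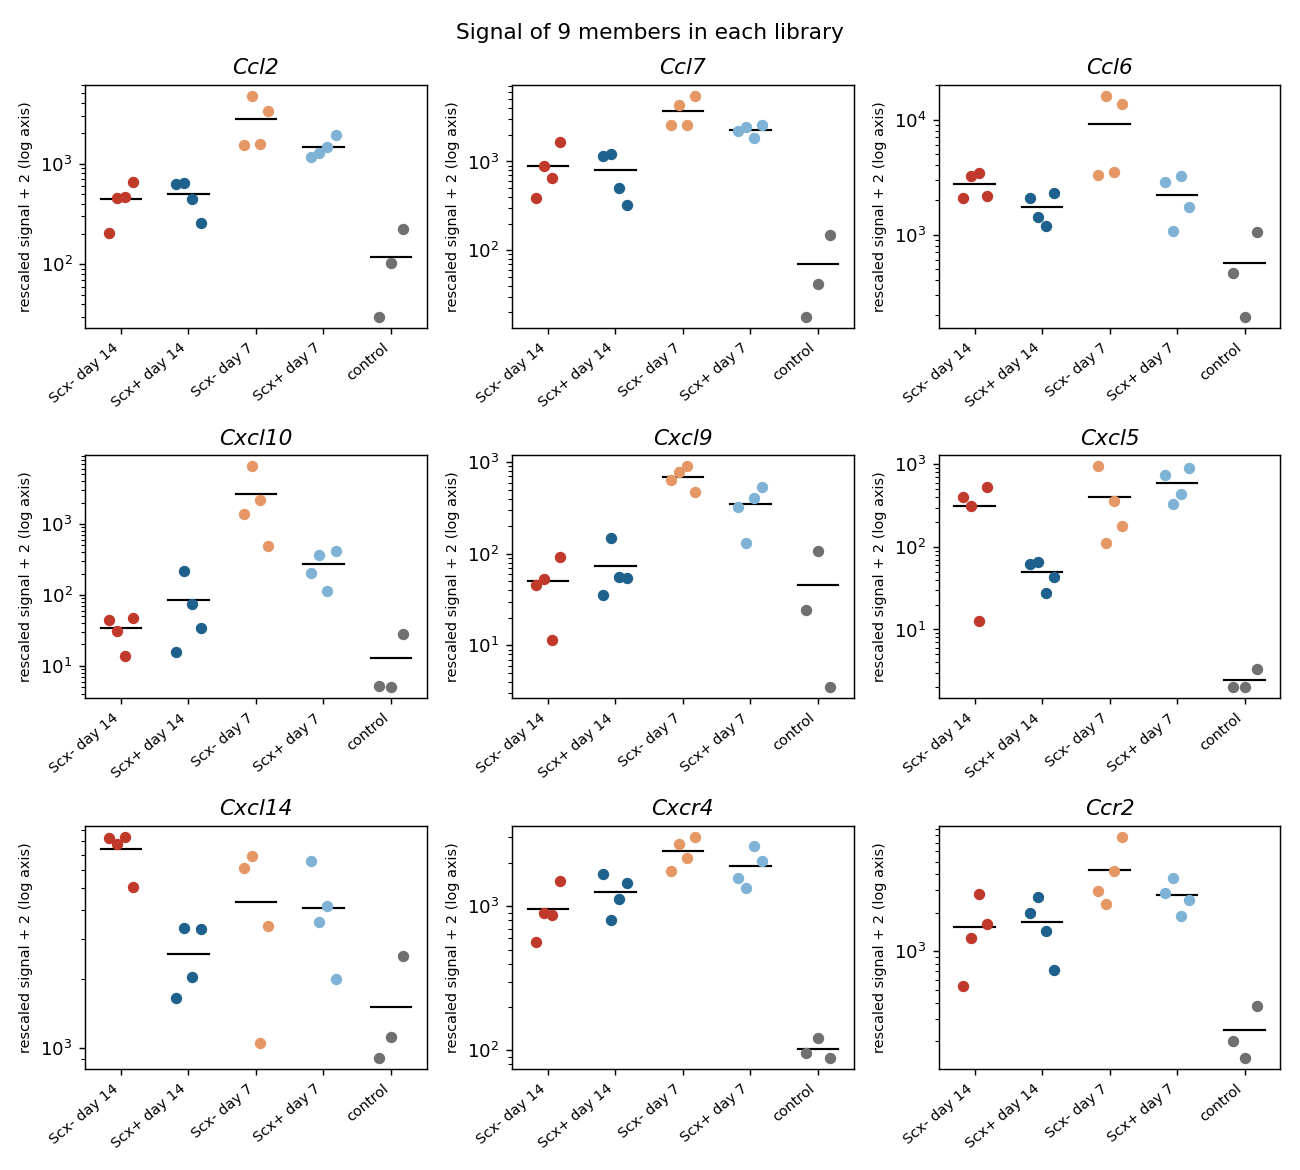
Signal plus 2 (y axis, log scale) of 9 members in each library, by group, with a bar at the group mean. The Scx- day 7 libraries of Cxcl10 lie above all others, 1 Scx- day 14 library of Cxcl5 lies far below the other 3, at 10.7 units, and Cxcr4 in controls is grouped between 87 and 119 units.

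The genes around these members were followed in 5 further lists. Of the 14 NF-kB and interferon factors, 6 were lower in Scx- at day 14 against day 7, where 3.86% of all genes were lower, and none in Scx+. Irf7, a driver of interferon genes, held 1088, 1057, 599 and 594 units at day 14 and 6539, 13894, 11132 and 9470.3 units at day 7 in Scx-, a fall of 3.63 ± 0.27 (SE, adjusted p = 1.62e-06). Stat2 fell by 1.84 ± 0.25 (SE, adjusted p = 0.000321) and Irf1 fell by 0.95 ± 0.15 (SE, adjusted p = 0.000978). Between Scx- and Scx+ at day 7, Irf7 was higher by 2.35 ± 0.27 (SE, adjusted p = 0.000442) and Stat2 by 1.09 ± 0.25 (SE, adjusted p = 0.0463), and at day 14 none of the 14 passed. For Irf7 the genotype effect itself differed between days, by -2.56 ± 0.38 (SE, adjusted p = 0.0238), a call that 11 other settings ended (adjusted p 0.0534 to 0.10), of which 9 left out a single library. At day 14 these were replicate 3 of Scx- and replicates 1, 2 and 4 of Scx+, and at day 7 replicates 2 and 3 of Scx- and replicates 1, 2 and 3 of Scx+. The Stat2 call was lost in 11 settings (adjusted p 0.0539 to 0.216), 6 of them without a single library, namely replicates 2, 3 and 4 of Scx- and replicates 1, 2 and 3 of Scx+. Against the control, 6 of 14 were higher in Scx- at day 14 (25.5% of all genes), 9 in Scx+ at day 14 (30.9%), 9 in Scx- at day 7 (32.3%) and 9 in Scx+ at day 7 (33.8%).

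Of 28 receptor signalling genes, 8 were lower and none higher in Scx- at day 14 against day 7 (3.86% and 1.40% of all genes), among them Pik3r5, a phosphoinositide 3-kinase subunit (-1.22 ± 0.19 SE, adjusted p = 0.000978), Dock2 (-1.54 ± 0.25 SE, adjusted p = 0.00160) and Vav1 (-1.52 ± 0.27 SE, adjusted p = 0.00293), which act on the leukocyte cytoskeleton. In Scx+ mice the receptor kinase Grk3 alone was lower (-1.49 ± 0.22 SE, adjusted p = 0.0156), and not without Scx+ day 7 replicate 2, 3 or 4 (adjusted p 0.0531 to 0.0896). In Scx+ at day 7, 23 of 28 were higher than in the control and 1 lower (33.8% and 27.5% of all genes), with Pik3r5 at 2.52 ± 0.20 (SE, adjusted p = 5.34e-08) and Jak2, the lower one, at -1.19 ± 0.13 (SE, adjusted p = 1.56e-06). Among 16 other chemokine receptors, of which 12 were tested, the scavenger Ackr4 rose by 2.57 ± 0.55 (SE, adjusted p = 0.0110) in Scx- at day 14 against day 7. That call was lost without Scx- day 7 replicate 2 (2.30, adjusted p = 0.0512) and in a fit on the compared groups alone (2.60, adjusted p = 0.084). Ackr4 held 354, 358, 1991 and 2174 units in Scx- at day 14 and 201, 80.5, 145 and 178 at day 7. In Scx+ it held 650, 825, 1590 and 456 units at day 14 and 212.5, 350, 262 and 163 at day 7, and did not pass. In Scx+ at day 7 against the control, 6 of these 12 receptors were higher and 2 lower (33.8% and 27.5% of all genes). Among the higher ones, Xcr1, a dendritic cell receptor, rose by 3.08 ± 0.56 (SE, adjusted p = 0.000156). The 2 lower ones were Ackr2, a scavenger of inflammatory CC ligands, which fell by 2.64 ± 0.47 (SE, adjusted p = 0.000130), and Ccrl2, by 1.69 ± 0.38 (SE, adjusted p = 0.00109). Of 17 other ligands, 12 were tested, and 3 rose and 4 fell in the same comparison, shares near the 33.8% and 27.5% of all genes. Among those that fell were Ccl25 at -2.08 ± 0.35 (SE, adjusted p = 7.56e-05) and Ccl27a at -1.72 ± 0.48 (SE, adjusted p = 0.00540). With library totals the Ccl27a call was lost (-1.05, adjusted p = 0.0627). Of 8 proteases that cut or shed chemokines, 7 were tested and 6 rose in Scx+ at day 7 against the control (33.8% of all genes). Among them were Mmp14 (5.05 ± 0.32 SE, adjusted p = 6.47e-09) and Mmp2 (2.92 ± 0.35 SE, adjusted p = 3.06e-06).

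The authors' deposited table lists 30 of the 31 members, without Ccl5, among 15951 genes. Between Scx- and Scx+ it gives 1 member an adjusted p under 0.05 at day 14 and 3 members at day 7, where 177 and 755 of all its genes do. These are Cxcl14 at day 14, with the authors' deposited table giving a log2 fold change of 1.51, and Ccl6 (2.05), Cxcl10 (3.27) and Ackr3 (0.70) at day 7. For day 14 against day 7 the authors' deposited table has 14 members in Scx- and 12 in Scx+, among 1443 and 796 of all its genes, against 7 and none by the test used here. The Scx+ entries of the authors' deposited table include Cxcl5 at -3.65 and Ccl2 at -1.57, both lower at day 14.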

How the data were processed

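Total RNA was sequenced in 19 libraries of mouse plantaris tendon. Per the submitters' processing notes, FastQC, STAR and DESeq2 were used with build mm10, and no versions, strand setting or rule for reads shared by paralogues is given in the sources used here. The deposited table holds a scaled signal per gene, not whole reads, so depth is unknown. The authors' deposited comparisons hold log2 fold changes and adjusted p-values. Here each library was rescaled by the median ratio over genes above 0 in every library (factors 0.844 to 1.10). Genes reaching a signal of 10 in 3 or more libraries entered the test on log2(signal + 2), a scale that understates changes of low genes, with limma 3.58.1 in R 4.3.3 (5 groups in 1 fit, trend and robust, two-sided, Benjamini-Hochberg over 16619 genes, threshold 0.05). The script was tested on simulated data. The members and lists were chosen with earlier results of these data known. All 31 members are accounted for, and of other lists only genes that passed are named, at most 4 per comparison by smallest adjusted p. Alternatives were the scaling, the pseudocount, the filter, a replicate block, a fit on the compared groups alone, and leaving out each library. Some genes of the further lists are not reported here.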

Additional observations from a re-analysis of the deposited data

Results flagged for a closer look

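Among 124 sets of 4 libraries, 4 held a library that stood apart from the other 3 by Dixon's criterion, where chance gives about 1 in 20. Cxcl5 in Scx- day 14 replicate 3 was at 10.7 units, with the others at 307 to 538. Cxcl14 in Scx- day 14 replicate 4 was at 5040 units, with the others at 7788 to 8358. Ccr7 in Scx+ day 14 replicate 2 was at 25.4 units, with the others at 47.2 to 52.2. Ccl24 in Scx- day 7 replicate 4 was at 124 units, with the others at 69.5 to 75.5. For Irf7, the difference between Scx- and Scx+ was itself different at day 14 and day 7, by -2.56 on the log2 scale (limma, adjusted p = 0.0238).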

How the results depend on the processing

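Of 2634 recomputed fold changes of members that passed and of other named results, 2524 kept their direction and side of the threshold, 107 lost their call and none reversed. Over all members and comparisons, 41 calls were gained under an alternative. For day 14 against day 7 in Scx-, the 7 members became 11 with library totals, 14 on the deposited scale, 2 without the 2 muscle-rich libraries, and 4 to 9 when single libraries were left out. Between Scx- and Scx+, the count of 0 became 1 at day 7 when only the compared groups were fitted (Ccl5), and was 0 to 1 at day 14 when single libraries were left out (Cxcl5). For day 14 against day 7 in Scx+ it became 1 when only the compared groups were fitted (Cxcl5). Against the control, leaving out single libraries gave 22 to 24 members in Scx- mice and 20 to 22 in Scx+ mice at day 14, with day 7 counts of 23 to 25 for Scx- and 25 to 27 for Scx+. The cause of these shifts was not tested. Same-numbered libraries did not deviate together (correlations from -0.43 to 0.35), so the numbers were not taken as pairs. A fit with the replicate block gave 5 members for day 14 against day 7 in Scx- (without Ccl7 and Ccr1), 0 in Scx+, and 0 between genotypes at each day. With that block, 23, 22, 24 and 27 members passed against the control in Scx- day 14, Scx+ day 14, Scx- day 7 and Scx+ day 7. The scaling moved the split of all genes against the control, with 7209 higher and 1359 lower by library totals in Scx- at day 14, against 4239 and 3047 as reported. On the deposited scale the same split was 2783 and 5128. Depth is unknown, so differences in genes near 0 were limited by an unknown counting error.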
